A study of Mus musculus with 16 samples.

Results

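The genes described here encode the machinery of oxidative phosphorylation, measured by RNA sequencing of whole descending thoracic aorta. They are the protein-coding genes of the deposited table whose GENCODE symbol begins with Ndufa, Ndufb, Ndufs, Ndufv, Sdha, Sdhb, Sdhc, Sdhd, Uqcr, Cox4, Cox5, Cox6, Cox7, Cox8 or Atp5, or with mt-Nd, mt-Co, mt-Cyt or mt-Atp. Of 52636 genes in the table, 108 met this rule, 95 encoded in the nucleus and 13 in mitochondrial DNA. The nuclear genes comprised 34 subunits of complex I, 4 of complex II, 8 of complex III, 20 of complex IV and 16 of complex V, together with 13 assembly and accessory factors that the prefixes also caught. The mice were of the inbred strain C57BL/6J or 129S6/SvEvTac, either control or hypertensive through angiotensin II (AngII), the vasoconstrictor peptide of the renin system, and each of the 4 groups had 4 samples. The labels name no other allele or agent. The sources used here do not give age, sex, AngII dose or duration, whether each sample came from its own animal, or how far tissue around the vessel was removed. If samples share an animal, the p-values below measure only the spread between these samples. Because whole tissue was sequenced, fewer cells of a type and less RNA per cell cannot be told apart.

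Oxidative phosphorylation takes place in the inner mitochondrial membrane. Complexes I and II feed electrons from NADH and succinate to ubiquinone, complex III passes them through cytochrome c to complex IV, which reduces oxygen, and complex V uses the resulting proton gradient to make ATP. Complex II is encoded wholly in the nucleus, whereas the other complexes combine nuclear subunits with core subunits made from the small circular mitochondrial genome, whose genes are transcribed together as long polycistronic RNAs. Several complex IV subunits, among them Cox6a, Cox7a and Cox8, exist as a form made in nearly all cells and a form typical of heart, skeletal muscle or brown fat. The arterial wall consists mainly of smooth muscle cells with modest respiratory demand, and the fat around the thoracic aorta of mice resembles brown fat, which is rich in mitochondria.

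Levels are given as CPM (counts scaled to the library total), adjusted by the TMM method. Total counts ran from 42116120 to 61381134 in 15 libraries and reached 121573945 in 129S6/SvEvTac AngII replicate 5. A gene was tested if it had enough counts, and it passed with an adjusted p below 0.05 (edgeR quasi-likelihood test with Benjamini-Hochberg adjustment over all 17125 genes tested). Of the 108 members 105 were tested, 93 nuclear and 12 mitochondrial, the others being Cox7b2, Cox8c and mt-Atp6. Smooth muscle markers, summed over 10 genes, were at 42860 to 46440 CPM in C57BL/6J controls, 13620 to 32150 CPM in C57BL/6J AngII and 40590 to 51840 CPM in the 129S6/SvEvTac libraries. In C57BL/6J, summed fibroblast markers were at 5574 to 6811 CPM in controls and 27750 to 42240 CPM with AngII, and summed macrophage markers at 337 to 452.6 CPM in controls and 991.3 to 1897 CPM with AngII. The part of these shifts in the levels of the members was not tested. One library stood apart for the members described here. In C57BL/6J AngII replicate 1 the level of 85 of the 93 nuclear members tested, and of 10 of the 12 mitochondrial ones, was the highest of the group. The same library had the highest summed brown fat markers of all 16, at 1326 CPM, against 295 to 485.6 CPM in the other 3 libraries of its group and 207.2 to 270.9 CPM in C57BL/6J controls. Results that rest on it are given with and without it.

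Per kilobase of merged exon, 7 of the 13 mitochondrially encoded genes led the order of levels. Averaged over all 16 libraries, mt-Co1, the catalytic subunit of complex IV, stood at 5502 CPM per kb and mt-Cytb, the cytochrome b of complex III, at 5479 CPM per kb. The highest nuclear members were Cox6a1, Cox8a and Cox6b1, the ubiquitous forms of 3 small complex IV subunits, at 235.6, 199.3 and 142.6 CPM per kb, followed by Atp5a1 and Atp5b, which form the catalytic head of ATP synthase, at 138.6 and 132.2 CPM per kb. The assembly and accessory factors lay far lower, for example Ndufaf1, a complex I assembly factor, at 7.51 CPM per kb and Sdhaf3, a complex II assembly factor, at 0.709 CPM per kb. Cox8c had no count in any library and Cox7b2 was counted in 1 library only.

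The summed level of the 95 nuclear members was nearly constant in controls. In C57BL/6J controls the sums were 6212, 6146, 6461 and 6564 CPM (replicates 1, 2, 3 and 5). In C57BL/6J AngII they were 9174, 5723, 4885 and 5845 CPM in replicates 1, 2, 3 and 5. Thus 3 AngII libraries lay below every C57BL/6J control and replicate 1 lay above them all. In 129S6/SvEvTac the control sums ran from 6059 to 6703 CPM and the AngII sums from 5745 to 6670 CPM, which overlap. The scatter between replicates followed the same picture: the median coefficient of variation over the nuclear members was 7.57% in C57BL/6J controls, 28.0% in C57BL/6J AngII, 8.06% in 129S6/SvEvTac controls and 10.2% in 129S6/SvEvTac AngII. In C57BL/6J AngII, replicate 3 held the lowest value for 77 of the 93 nuclear members. That library also had the lowest fat markers and the highest smooth muscle markers of the 4.

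**Figure D1:**
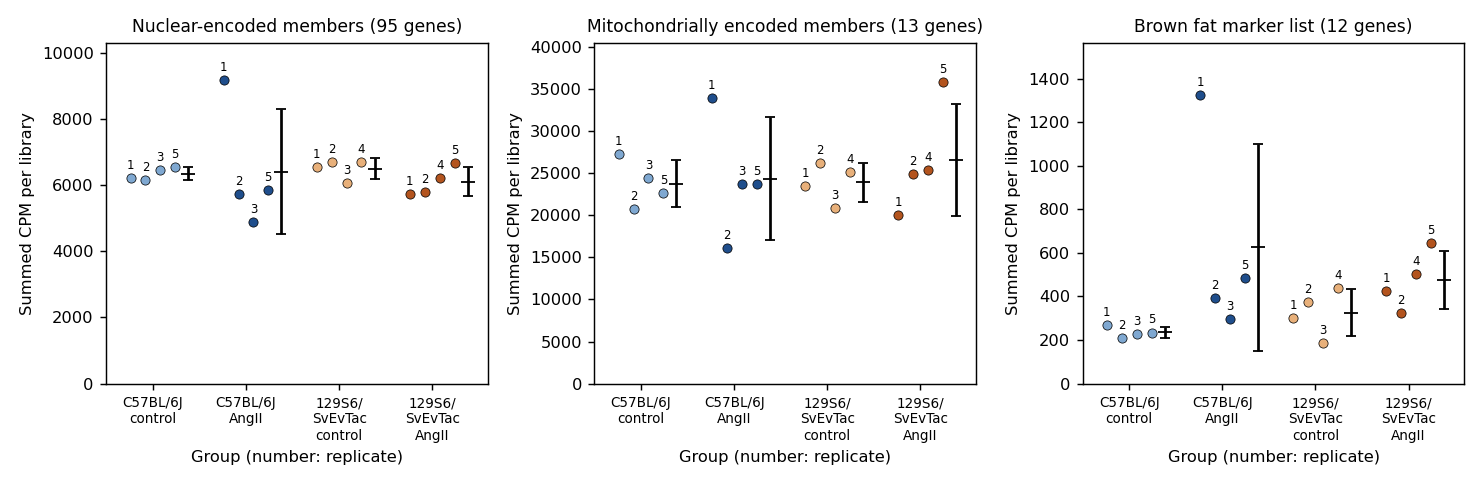
Summed CPM per library of the 95 nuclear-encoded members, the 13 mitochondrially encoded members and the 12 brown fat marker genes, by group. Each point is 1 library with its replicate number, and the bar beside each group is the mean with its SD (n = 4). C57BL/6J AngII replicate 1 is the highest point for the nuclear members and the brown fat markers, at 9174 and 1326 CPM.

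The first comparison asked what AngII did to these genes in C57BL/6J. Of the 93 nuclear members 21 changed, 15 lower and 6 higher, and the median log2 fold change over the 93 was -0.07. Over all 17125 genes 38.9% passed this test (21.8% higher and 17.1% lower) with a median of 0.01. The members that fell were spread over complexes I to V and the assembly factors, whereas all 6 that rose belong to complex IV. Without replicate 1 of the AngII group, 35 nuclear members passed, 34 of them lower and only Ndufa4l2 higher. Of the 21 calls 15 were shared, and the median fell to -0.22. In that fit 34.06% of all genes were called, 5963 of 17509, of which 3358 were higher. Without AngII replicate 3, by contrast, 28 nuclear members passed, 16 higher and 12 lower, with a median of 0.01, where 40.81% of all genes passed. The direction of the set thus depended on which AngII library was left out. Without control replicate 5 the number was 12, where 33.96% of all genes passed. Of the 21 calls, 10 held whichever of the 16 libraries was left out, namely Ndufa5, Ndufa6, Ndufa11, Ndufa13, Ndufb3, Ndufv3, Sdhc, Cox7a2l, Ndufaf8 and Ndufa4l2. The levels of the AngII and control libraries did not overlap for 7 of the 93 nuclear members, where 35.2% of all genes tested did not overlap.

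Of the 34 complex I subunits 8 fell and none rose (median log2 fold change -0.09). Ndufa6 (ENSMUSG00000022450.5, chr15:82350140-82354322 on GRCm38), an accessory subunit of the matrix arm, was at 56.8, 56.98, 59.4 and 60.3 CPM in C57BL/6J controls (replicates 1, 2, 3 and 5) and at 46.2, 39.99, 37.3 and 43.1 CPM with AngII (replicates 1, 2, 3 and 5). All 4 AngII libraries lay below all controls, and the fitted change was -0.49 ± 0.08 in log2 units (SE; adjusted p = 0.000229 by edgeR). Ndufv3, a small subunit of the NADH-binding module, was at 95.7, 97.9, 118 and 100.3 CPM in controls and 91.9, 57.2, 55.6 and 70.6 CPM with AngII. Again the groups did not overlap, although AngII replicate 1 lay close to the lowest control (log2 fold change -0.58 ± 0.14, adjusted p = 0.00444 by edgeR). Ndufa5, a subunit of the arm that carries the iron-sulfur clusters, had the largest fall of the class, from 24.9 to 32.9 CPM in controls to 25.1, 17.2, 14.9 and 17.7 CPM with AngII (log2 fold change -0.67 ± 0.16, adjusted p = 0.00412 by edgeR). Here AngII replicate 1 reached into the range of the controls. Ndufb3, Ndufb10, Ndufs7, Ndufa11 and Ndufa13 fell by 0.40, 0.44, 0.47, 0.31 and 0.37 on the log2 scale, and for each of them AngII replicate 1 was the highest of its group. Ndufa11 and Ndufa13 share exon positions with Vmac and Tssk6 on the opposite strand, and whether counting used strand is not stated in the sources available, so these counts are uncertain. Without AngII replicate 1, 18 of the 34 complex I subunits passed, all lower, with a median of -0.30. In that fit 34.06% of all genes passed in either direction, and 3358 of these 5963 genes were higher.

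In complex II, which oxidises succinate, 1 of the 4 subunits changed. Sdhc, a membrane anchor, was at 142.6 to 154.6 CPM in C57BL/6J controls and at 152.4, 104.1, 101.9 and 109.6 CPM with AngII (log2 fold change -0.35 ± 0.11, adjusted p = 0.0160 by edgeR). Of the AngII libraries 3 lay below the controls and replicate 1 lay among them. The flavoprotein Sdha was at 179.2 to 196.8 CPM in controls and at 398.1, 171.7, 172.6 and 221.0 CPM with AngII, and did not pass (log2 fold change 0.35 ± 0.21, adjusted p = 0.201 by edgeR). Sdhb, the iron-sulfur subunit, and Sdhd, the other anchor, had log2 fold changes of 0.22 and 0.50 with adjusted p of 0.401 and 0.0515. Without AngII replicate 1 the log2 fold changes of Sdha, Sdhb and Sdhd were 0.001, -0.10 and 0.22 and that of Sdhc was -0.50.

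Of 8 complex III members 1 changed. Uqcrh, the acidic hinge protein that helps cytochrome c dock, was at 116.2, 86.0, 90.2 and 136.6 CPM in C57BL/6J controls and 99.0, 70.6, 70.0 and 74.5 CPM with AngII (log2 fold change -0.45 ± 0.14, adjusted p = 0.0185 by edgeR). Its call was lost without AngII replicate 2 or control replicate 5, and 2 annotated pseudogenes carry its name, so reads may be shared with copies. Uqcrfs1, the Rieske iron-sulfur protein, showed how far replicate 1 stood apart: controls were at 54.0 to 59.6 CPM and AngII libraries at 145.1, 63.0, 53.4 and 66.4 CPM (log2 fold change 0.54 ± 0.24, adjusted p = 0.0853 by edgeR). Uqcrc1, a core subunit, did not pass either (log2 fold change 0.19 ± 0.19, adjusted p = 0.451 by edgeR). Without replicate 1, Uqcr10, Uqcr11, Uqcrb and Uqcrh passed, lower by 0.44, 0.48, 0.26 and 0.57 on the log2 scale, while Uqcrfs1 and Uqcrc1 stood at 0.12 and -0.15 and did not pass.

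Among the 16 ATP synthase genes 1 changed. Atp5g3, one of 3 genes for the membrane ring subunit c, was at 117.1 to 122.6 CPM in C57BL/6J controls and 116.5, 102.6, 101.7 and 103.0 CPM with AngII, and the log2 fold change was -0.18 ± 0.07 (adjusted p = 0.0473 by edgeR). The call was lost in 11 of 16 omissions of 1 library, with adjusted p up to 0.0924. Atp5b, the catalytic beta subunit, was at 476.6 to 505.6 CPM in controls and at 1050.4, 552.5, 458.2 and 549.3 CPM with AngII. It did not pass (log2 fold change 0.41 ± 0.19, adjusted p = 0.1002 by edgeR), and nor did the alpha subunit Atp5a1 (0.08 ± 0.15, adjusted p = 0.702). Without AngII replicate 1 their log2 fold changes were 0.09 and -0.10, neither called. In that fit 4 of the 16 passed, all lower: Atp5h at -0.41, Atp5c1 at -0.37, Atp5k at -0.41 and Atp5g3 at -0.22 (adjusted p of 0.000975, 0.00525, 0.0315 and 0.0205 by edgeR).

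**Figure D2:**
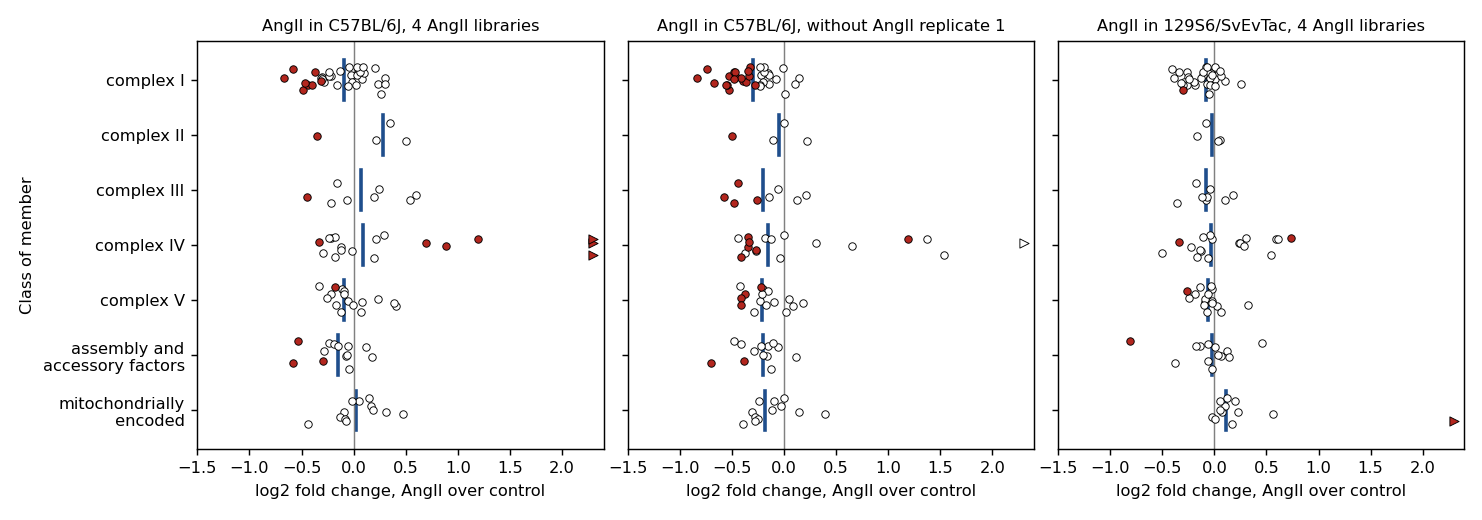
Log2 fold change of AngII over control for each tested member (circles), by class, in C57BL/6J with all libraries, in C57BL/6J without AngII replicate 1, and in 129S6/SvEvTac. Red circles passed the edgeR test, blue bars are class medians, and triangles at the right edge stand for values beyond the axis (Cox6a2 at 6.22, Cox7a1 at 3.02 and Cox8b at 3.20 on the left, Cox6a2 at 3.85 in the middle, mt-Nd4 at 4.46 on the right). The complex I median moves from -0.09 to -0.30 when replicate 1 is left out.

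Complex IV held both directions, and the members that rose were mostly isoforms rather than the ubiquitous subunits. The upstream sequences of the ubiquitous and tissue forms are shown because their makeup differs. They are the bases 190 to 41 before the RefSeq start (GRCm38.p6), 5′ to 3′ on the strand of the gene, with capitals marking CG dinucleotides. The positions are chr7:30183981-30184130 (plus strand) for Cox7a1, chr9:79759894-79760043 (minus strand) for Cox7a2, chr7:140900487-140900636 (minus strand) for Cox8b and chr19:7217657-7217806 (minus strand) for Cox8a. None of these bases lies in a GENCODE exon.
Cox7a1: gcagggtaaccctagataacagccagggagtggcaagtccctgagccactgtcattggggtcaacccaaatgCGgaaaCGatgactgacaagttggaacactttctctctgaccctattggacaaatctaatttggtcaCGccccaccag
Cox7a2: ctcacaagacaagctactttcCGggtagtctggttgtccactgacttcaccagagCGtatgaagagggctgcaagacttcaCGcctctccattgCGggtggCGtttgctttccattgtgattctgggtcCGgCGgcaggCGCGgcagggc
Cox8b: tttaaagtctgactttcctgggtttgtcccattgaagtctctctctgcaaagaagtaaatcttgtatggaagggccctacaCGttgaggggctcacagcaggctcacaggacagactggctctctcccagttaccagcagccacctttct
Cox8a: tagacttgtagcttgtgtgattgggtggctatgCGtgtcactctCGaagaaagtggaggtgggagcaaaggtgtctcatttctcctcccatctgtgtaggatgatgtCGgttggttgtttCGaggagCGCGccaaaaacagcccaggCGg
The tissue forms Cox7a1 and Cox8b held 3 and 1 CG dinucleotides in the stretch shown, and their ubiquitous counterparts Cox7a2 and Cox8a held 9 and 7. Over the window from 250 bases before to 50 after the start, the count was 7 for Cox7a1, 2 for Cox8b and 10 for Cox6b2, while the other 75 nuclear members with a window ranged from 5 (Cox7b) to 44 with a median of 20. The median over 17492 protein-coding genes was 13.

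Cox8b (ENSMUSG00000025488.9, chr7:140898945-140900446), the heart, muscle and brown fat form of subunit 8, was at 6.502, 1.55, 0.722 and 1.29 CPM in C57BL/6J controls (replicates 1, 2, 3 and 5) and at 71.6, 4.87, 1.61 and 15.1 CPM with AngII (replicates 1, 2, 3 and 5). The AngII value of replicate 1 exceeded every other library of the series, while replicates 2 and 3 lay within the range of the controls (log2 fold change 3.20 ± 1.06, adjusted p = 0.0260 by edgeR). Cox7a1 (ENSMUSG00000074218.3, chr7:30184144-30186078), the corresponding form of subunit 7a, was at 2.83, 0.518, 0.581 and 0.563 CPM in controls and 28.3, 2.77, 1.37 and 4.57 CPM with AngII (log2 fold change 3.02 ± 0.92, adjusted p = 0.0170 by edgeR). In both genes control replicate 1 was the highest control. Ucp1, the uncoupling protein that defines brown fat, had the same order of libraries as Cox8b within each group, at 21.2, 2.18, 1.10 and 1.49 CPM in controls and 549.3, 26.3, 12.4 and 75.4 CPM with AngII. By share of the pair, per kilobase, Cox8b made up 43.4% of Cox8b and Cox8a together in AngII replicate 1 and 3.90 to 18.9% in the other AngII libraries, against 0.954 to 8.24% in controls. Neither passed without AngII replicate 1, nor without control replicate 2, 3 or 5. Without AngII replicate 1 the log2 fold change of Cox8b was 1.53 (adjusted p = 0.201) and that of Cox7a1 1.38 (adjusted p = 0.156, edgeR in both). With the summed brown fat markers as a covariate the values were -0.72 (adjusted p = 0.389) and -0.07 (adjusted p = 0.941, edgeR in both). The summed markers did not overlap between C57BL/6J controls (207.2 to 270.9 CPM) and AngII libraries (295 to 1326 CPM). This fit therefore cannot fully separate AngII from these markers.

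Cox6a2, the muscle form of subunit 6a, was counted 3 times in all C57BL/6J controls together and 256 times in the AngII libraries, a ratio per total counts of 82.1 (95% interval 27.8 to 400.6, counting error only). It stood at 4.36, 0.281, 0 and 0.437 CPM in AngII replicates 1, 2, 3 and 5, so most counts came from replicate 1, and its exons overlap Itgad, an integrin gene on the other strand. Cox6b2, described as a testis form of subunit 6b, went from 1.07 to 1.32 CPM in controls to 3.26, 1.84, 1.35 and 2.42 CPM (log2 fold change 0.89 ± 0.28, adjusted p = 0.0214 by edgeR). Cox5a, a ubiquitous subunit, was at 39.8 to 47.9 CPM in controls and at 124.1, 62.4, 43.4 and 59.2 CPM with AngII (log2 fold change 0.69 ± 0.24, adjusted p = 0.0316 by edgeR). The calls of Cox6a2, Cox6b2 and Cox5a were lost without AngII replicate 1 (adjusted p of 0.130, 0.0911 and 0.134), and also in 3, 3 and 4 other omissions. Cox5a shares 269 exon bases with Gm26631. The ubiquitous counterparts Cox6a1, Cox6b1, Cox7a2, Cox8a and Cox4i1 did not pass with all libraries, with log2 fold changes of -0.01, 0.29, -0.18, -0.18 and -0.12. Without AngII replicate 1, Cox4i1, Cox7a2, Cox7c, Cox8a and Cox7a2l passed, lower by 0.35, 0.34, 0.27, 0.41 and 0.33 on the log2 scale.

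Of the whole brown fat list, 8 of the 11 genes tested rose with AngII in C57BL/6J and 1 fell, and all 15 white and general fat genes rose. Over all genes tested in this comparison 21.8% were higher and 17.1% lower. Summed white and general fat markers were 7145, 1204, 393.2 and 4214 CPM in AngII replicates 1, 2, 3 and 5, and 265.4 to 710.8 CPM in controls. Summed skeletal and cardiac muscle markers were 250.8 CPM in replicate 1 and 52.4 to 79.4 CPM in the other 3. With the brown fat markers as a covariate 45 nuclear members passed, 44 lower and Ndufa4l2 higher, where 27.1% of all genes passed. Because the summed brown fat markers did not overlap between the C57BL/6J groups, this fit cannot fully separate them from AngII.

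Ndufa4l2 was the only one of the 6 risen members whose call held in every omission. It encodes a relative of Ndufa4, a subunit now assigned to complex IV, and it is known as a target of hypoxia-inducible factor and as a gene of pericytes and smooth muscle. Ndufa4l2 (ENSMUSG00000040280.10) lies at chr10:127514967-127517154. Its level was 8.14, 6.17, 8.42 and 9.31 CPM in C57BL/6J controls and 18.7, 14.7, 14.0 and 25.7 CPM with AngII (replicates 1, 2, 3 and 5 each). Every AngII library lay above every control and the highest was replicate 5, not replicate 1 (log2 fold change 1.19 ± 0.24, adjusted p = 0.00108 by edgeR). Over the 16 omissions of 1 library the log2 fold change ran from 0.97 to 1.31 and the highest adjusted p was 0.00623. Summed pericyte markers were at 1382, 1336, 2578 and 2046 CPM in the AngII libraries and 2332 to 2974 CPM in controls. Per kilobase, Ndufa4l2 made up 14.9 ± 4.79% of Ndufa4l2 and Ndufa4 together in controls and 31.2 ± 8.57% with AngII (SD, n = 4 each). Ndufa4l2 shares 32 of its 1095 exon bases with Shmt2 on the other strand. Ndufa4 itself did not pass (log2 fold change -0.24 ± 0.21, adjusted p = 0.407) and was uneven within groups, at 46.6, 74.5, 74.5 and 47.8 CPM in the C57BL/6J controls.

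**Figure D3:**
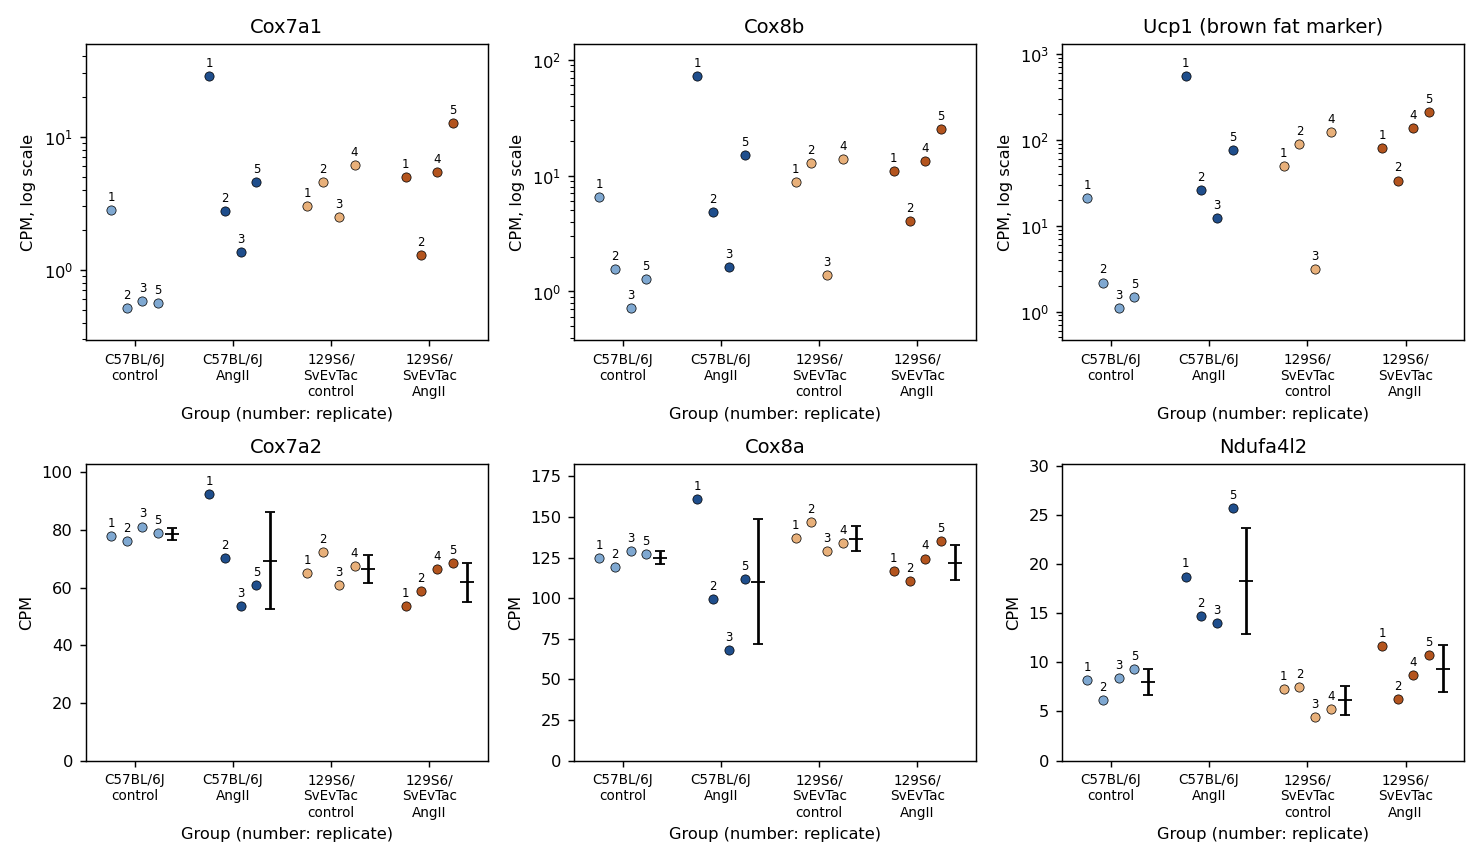
CPM per library of Cox7a1, Cox8b and the brown fat marker Ucp1 (log axes), and of Cox7a2, Cox8a and Ndufa4l2 (linear axes from 0, with mean and SD beside each group, n = 4). Numbers are replicates. Cox7a1, Cox8b and Ucp1 all peak in C57BL/6J AngII replicate 1, at 28.3, 71.6 and 549.3 CPM, whereas Ndufa4l2 is higher in all 4 AngII libraries of C57BL/6J.

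In 129S6/SvEvTac fewer members passed the test of AngII against control. Of the 93 nuclear members 5 passed, 4 lower and 1 higher, with a median log2 fold change of -0.06, where 12.2% of all genes passed (7.71% higher and 4.47% lower) and the median was 0.00. Groups did not overlap for 12 of the 93 nuclear members, and for 23% of all genes. Cox4i2, the form of subunit 4 known from lung and from cells that sense low oxygen, was at 3.46, 3.78, 3.35 and 3.73 CPM in controls and 5.37, 4.95, 7.75 and 5.81 CPM with AngII. All AngII libraries exceeded all controls (log2 fold change 0.74 ± 0.22, adjusted p = 0.0396 by edgeR), but the call was lost in 12 of 16 omissions. In C57BL/6J the log2 fold change of Cox4i2 was -0.21 ± 0.22 (adjusted p = 0.468). Atp5g2, another gene for subunit c, showed a log2 fold change of -0.26 ± 0.08 (adjusted p = 0.0496 by edgeR) and its call was lost in 10 of 16 omissions. The exons of Atp5g2 share 75 bases with the microRNA gene Mir688. The count of nuclear members called was 10, all lower, without C57BL/6J AngII replicate 1 and 2 without 129S6/SvEvTac control replicate 2 or replicate 4, and it was 3 without each of 8 other libraries. Over all genes 12.86% passed in the first of these fits. The share was 7.994% and 8.234% without those 2 controls, and 8.384 to 10.89% in the 8 others.

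Cox7a2l, Ndufa6 and Atp5s fell in both strains. These 3 are 14.3% of the 21 members called in C57BL/6J and 50% of the 6 called in 129S6/SvEvTac, mt-Nd4 included. Over all genes, 1480 passed in the same direction in both strains, 22.2% of the 6664 called in C57BL/6J and 70.9% of the 2087 called in 129S6/SvEvTac. Upstream bases of Cox7a2l and Ndufa6, and of Ndufs5 described below, are shown as the starts of 2 of the 3 members that fell in both strains and of the member with the largest called strain difference among nuclear members in controls, with the same marking of CG dinucleotides and the same distances from the RefSeq start. Their positions are chr17:83514374-83514523 (minus strand), chr15:82354332-82354481 (minus strand) and chr4:123718227-123718376 (minus strand).
Cox7a2l: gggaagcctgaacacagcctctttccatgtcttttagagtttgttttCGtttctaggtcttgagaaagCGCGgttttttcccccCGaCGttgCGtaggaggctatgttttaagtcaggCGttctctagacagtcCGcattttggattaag
Ndufa6: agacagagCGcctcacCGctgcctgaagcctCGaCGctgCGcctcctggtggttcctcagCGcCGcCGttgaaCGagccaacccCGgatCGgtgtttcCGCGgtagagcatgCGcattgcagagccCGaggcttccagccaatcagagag
Ndufs5: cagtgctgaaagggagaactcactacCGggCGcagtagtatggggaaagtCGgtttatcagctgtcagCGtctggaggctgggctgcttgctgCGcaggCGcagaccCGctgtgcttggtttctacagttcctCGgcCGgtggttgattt
All 3 have CG counts within the range of the other nuclear members, 19, 27 and 25 over the window around the start. GENCODE also places a start of Cox7a2l further upstream, so its gene model runs to base 83517330 of chromosome 17.

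Cox7a2l (ENSMUSG00000024248.13, chr17:83501918-83517330 on GRCm38), also called SCAF1, is a relative of subunit 7a that links complex III to complex IV in supercomplexes. C57BL/6J controls were at 126.8, 125.8, 131.4 and 130.3 CPM and C57BL/6J AngII libraries at 104.7, 95.3, 103.4 and 106.3 CPM (replicates 1, 2, 3 and 5). The 129S6/SvEvTac controls were at 94.0, 96.7, 94.6 and 89.5 CPM (replicates 1 to 4) and the AngII libraries at 71.5, 79.2, 68.2 and 78.1 CPM (replicates 1, 2, 4 and 5). The groups did not overlap in either strain, and the spread was the smallest of any tested nuclear member in the C57BL/6J AngII group (coefficient of variation 4.79%). The log2 fold change was -0.33 ± 0.06 in C57BL/6J (adjusted p = 0.000785) and -0.34 ± 0.06 in 129S6/SvEvTac (adjusted p = 0.00318, edgeR in both), and both calls held in every omission. In 129S6/SvEvTac Ndufa6 went from 50.9, 56.96, 52.3 and 54.7 CPM to 43.5, 38.8, 44.3 and 48.4 CPM (log2 fold change -0.30 ± 0.08, adjusted p = 0.0246 by edgeR), and this call was lost without AngII replicate 2, control replicate 2 or control replicate 4. Atp5s (ENSMUSG00000054894.6, chr12:69724950-69744660), which encodes coupling factor B, an accessory protein of ATP synthase, was at 4.23, 5.21, 5.57 and 5.21 CPM in 129S6/SvEvTac controls and at 3.09, 2.93, 3.16 and 2.36 CPM with AngII (log2 fold change -0.81 ± 0.20, adjusted p = 0.0141 by edgeR). In C57BL/6J it went from 3.52 to 4.06 CPM in controls to 2.41, 1.73, 3.58 and 2.89 CPM (log2 fold change -0.53 ± 0.20, adjusted p = 0.0440 by edgeR), and this call was lost in 9 of 16 omissions.

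Whether the strains differed in their response was tested as the difference of the AngII effects. None of the 93 nuclear members passed by edgeR, where 9.96% of all genes did (5.34% higher and 4.62% lower in C57BL/6J), and 3 had an unadjusted p below 0.05 (Cox4i2, Cox6a2 and Ndufa11). DESeq2 called 2 nuclear members and limma voom with sample weights also 2, where they called 15.68% and 15.59% of all genes. Ndufa11 had an effect in C57BL/6J lower by 0.42 ± 0.14 on the log2 scale (adjusted p = 0.0628 by edgeR) and Cox4i2 lower by 0.95 ± 0.31 (adjusted p = 0.0650 by edgeR). By edgeR with all libraries, the larger number of calls in C57BL/6J is therefore not shown to be a difference of response in any single nuclear member. One nuclear member passed when C57BL/6J AngII replicate 1, C57BL/6J AngII replicate 3 or C57BL/6J control replicate 5 was left out. Of all genes, 7.168%, 17.01% and 7.412% passed in these fits.

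Between the strains, C57BL/6J controls were higher than 129S6/SvEvTac controls for 4 of 93 nuclear members and lower for none, where 10.4% of all genes differed (5.35% higher and 5.06% lower). Groups did not overlap for 10 of the 93, against 22.3% of all genes. Ndufs5 (ENSMUSG00000028648.13, chr4:123712710-123718202), an accessory subunit of complex I on the intermembrane side, had the largest difference of the 4. It was at 33.0, 33.0, 40.03 and 35.2 CPM in C57BL/6J controls and at 13.7, 15.4, 14.2 and 15.7 CPM in 129S6/SvEvTac controls. With AngII it was at 46.2, 33.9, 23.8 and 32.2 CPM in C57BL/6J and at 12.2, 16.1, 17.7 and 13.3 CPM in 129S6/SvEvTac. The strains did not overlap in either condition, with levels 2.395-fold (adjusted p = 9.3e-05) and 2.29-fold higher in C57BL/6J (log2 difference with AngII 1.20 ± 0.17, adjusted p = 7.3e-05, edgeR in both). Cox7a2l was higher in C57BL/6J by 0.46 ± 0.06 in controls (adjusted p = 0.000148) and 0.46 ± 0.06 with AngII (adjusted p = 6.3e-05, edgeR in both). The calls of Ndufs5 and Cox7a2l held in every omission. Reads were aligned to GRCm38, the genome of C57BL/6J, and the part of sequence differences between the strains in these counts was not tested.

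**Figure D4:**
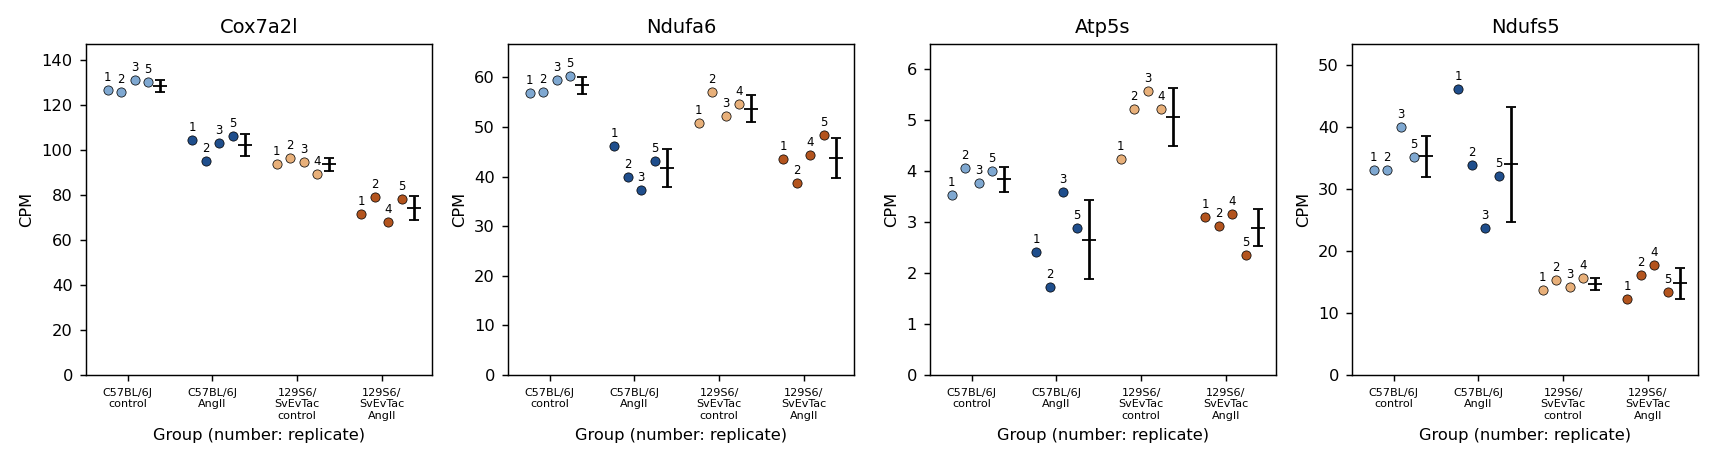
CPM per library (axes from 0) of Cox7a2l, Ndufa6, Atp5s and Ndufs5 in the 4 groups, with replicate numbers and with the mean and SD of each group (n = 4). Cox7a2l is lower with AngII in both strains and lower in 129S6/SvEvTac in both conditions, and Ndufs5 separates the strains without overlap, at 23.8 CPM or more in C57BL/6J and 17.7 CPM or less in 129S6/SvEvTac.

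The other members that differed in controls were complex I assembly factors. Ndufaf2 was at 7.38 to 9.19 CPM in C57BL/6J and 5.70 to 6.53 CPM in 129S6/SvEvTac (log2 difference 0.50 ± 0.14, adjusted p = 0.0331 by edgeR), and Ndufaf7, a methyltransferase that modifies a complex I subunit, was higher by 0.38 ± 0.11 (adjusted p = 0.0378 by edgeR). These calls were lost in 7 and 8 of 16 omissions. Ndufaf2 shares exon positions with B230220B15Rik on the other strand. The count of nuclear members called was 2 without C57BL/6J control replicate 1 or 5 or without any of the 4 controls of 129S6/SvEvTac. In these fits 7.72 to 8.435% of all genes passed. With AngII 7 nuclear members differed between the strains, 4 higher and 3 lower in C57BL/6J, where 31.3% of all genes differed (16.8% higher and 14.6% lower). Ndufs5, Cox7a2l and Ndufaf2 were again higher, and Ndufa4l2 was higher by 0.97 ± 0.24 (adjusted p = 0.00581 by edgeR). Cox4i2 was at 3.12, 3.72, 2.06 and 4.18 CPM in C57BL/6J AngII, lower than in 129S6/SvEvTac (log2 difference -0.87 ± 0.22, adjusted p = 0.00718 by edgeR). Ndufa11 was lower by 0.52 ± 0.10 and the assembly factor Ndufaf3 by 0.37 ± 0.11 (adjusted p of 0.000741 and 0.0193 by edgeR). Groups did not overlap for 6 of the 93 with AngII, against 27% of all genes. Without C57BL/6J AngII replicate 1 the number of nuclear members called was 16 (4 higher and 12 lower), and without replicate 3 it was also 16 (14 higher and 2 lower). Of all genes, 26.9% and 34.64% differed in these fits.

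Of the 12 mitochondrially encoded genes tested, none passed the test of AngII against control in C57BL/6J, where 38.9% of all genes passed. In 129S6/SvEvTac 1 did, where 12.2% of all genes passed. Their summed level was 20734 to 27282 CPM in C57BL/6J controls and 33925, 16143, 23735 and 23769 CPM in C57BL/6J AngII (replicates 1, 2, 3 and 5), so that the AngII libraries spanned the controls on both sides. In 129S6/SvEvTac it was 20929 to 26233 CPM in controls and 20074, 24900.4, 25459 and 35862 CPM with AngII (replicates 1, 2, 4 and 5). The ratio of the mitochondrial to the nuclear sum was 3.75 ± 0.46 in C57BL/6J controls and 3.86 ± 0.85 in C57BL/6J AngII. It was 3.68 ± 0.20 in 129S6/SvEvTac controls and 4.31 ± 0.79 in 129S6/SvEvTac AngII (SD, n = 4, without a test). These sums include mt-Nd4, whose level was split in 129S6/SvEvTac as described below. Without mt-Nd4 and mt-Atp6 the ratios were 3.34 ± 0.41, 3.47 ± 0.76, 3.66 ± 0.20 and 4.05 ± 0.55 in the same order of groups. In C57BL/6J AngII the order of the libraries differed between the sets: replicate 3 was lowest for most nuclear members, and replicate 2 was lowest for all 12 mitochondrial genes tested. None of the 12 passed in C57BL/6J by edgeR, limma voom or DESeq2, and none had an unadjusted p below 0.05. In 129S6/SvEvTac 1 passed, mt-Nd4, although its AngII and control libraries overlapped in level. The highest library for all 12 in that group was replicate 5, which also had the most counts and the highest muscle markers, at 562.5 CPM against 84.3 to 99.4 CPM in the other 3.

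The 13 mitochondrial genes differed widely in level. In every library mt-Co1, mt-Cytb, mt-Nd1, mt-Nd2, mt-Nd5 and mt-Nd6 stood at 148.6 CPM or above, whereas mt-Co2, mt-Co3, mt-Atp6, mt-Atp8, mt-Nd3 and mt-Nd4l stood at 24.0 CPM or below. Per kilobase, mt-Co1 averaged 5502 CPM and mt-Co2, another core subunit of complex IV, 18.5 CPM. The low genes lie next to or overlap one another in part: mt-Atp8 and mt-Atp6 share 43 bases, mt-Atp6 and mt-Co3 share 1, and mt-Nd4l and mt-Nd4 share 7. Overlap is not limited to the low genes, nor shared by all of them. mt-Nd5 and mt-Nd6, both high, share 14 bases on opposite strands, while mt-Co2 and mt-Nd3 overlap no gene. No source used here states how counts were divided between such neighbours, so levels compared between mitochondrial genes are values of this table.

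mt-Nd4 (ENSMUSG00000064363.1, bases 10167 to 11544 of the mitochondrial genome), a core membrane subunit of complex I, took 2 levels far apart. In the 8 C57BL/6J libraries it stood at 2988, 2203, 2718 and 2604 CPM in controls and 3490.4, 1652, 2420.4 and 2405 CPM with AngII. In 129S6/SvEvTac the controls were at 77.8, 72.4, 85.5 and 61.4 CPM and the AngII libraries at 83.4, 2466, 92.9 and 3908 CPM (replicates 1, 2, 4 and 5). Thus 6 of 8 libraries of 129S6/SvEvTac were low and 2, both AngII, were within or above the C57BL/6J range. Relative to mt-Nd5, the next subunit gene on the same strand, mt-Nd4 was at 0.0245 to 0.0397 in the 6 low libraries and 0.944 to 1.43 in the 10 others, with no value between. Whether the division of counts between neighbouring genes has a part in these 2 levels was not tested. The log2 fold change of AngII in 129S6/SvEvTac was 4.46 ± 0.94 (adjusted p = 0.00641), the strain difference in controls 5.15 ± 0.97 (adjusted p = 0.00224) and the difference of AngII effects -4.54 ± 1.20 (adjusted p = 0.0282, edgeR in all 3). The effect in 129S6/SvEvTac rested on replicates 2 and 5, and the call of the difference was lost in 8 of 16 omissions. With limma voom neither the effect in 129S6/SvEvTac (2.31, adjusted p = 0.0897) nor the difference of effects (-2.37, adjusted p = 0.311) passed, whereas the strain difference in controls did (5.13, adjusted p = 0.000571). With the replicate number as a block the first 2 did not pass either (adjusted p of 0.0729 and 0.135). With AngII no mitochondrial gene differed between the strains by edgeR (1 at an unadjusted p below 0.05, 1 called by DESeq2 and none by limma voom), and 1 passed without C57BL/6J control replicate 3 or without 129S6/SvEvTac AngII replicate 5.

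mt-Nd3, another membrane subunit of complex I, was at 2.63, 1.64, 4.01 and 2.80 CPM in C57BL/6J controls and 0.837, 1.09, 0.633 and 1.15 CPM in 129S6/SvEvTac controls. The groups did not overlap and the log2 difference was 1.57 ± 0.37 (adjusted p = 0.0107 by edgeR), a call that held in every omission. mt-Nd3 and mt-Nd4 were the only mitochondrial genes of 12 whose control groups did not overlap between the strains, where 22.3% of all genes did not overlap. They were also the 2 of the 12 called in this comparison, where 10.4% of all genes passed. mt-Atp6, subunit a of ATP synthase, was counted at 8.97 CPM in C57BL/6J control replicate 1 and 18.1 CPM in 129S6/SvEvTac AngII replicate 5 and at 0.0168 to 0.0601 CPM in the 14 others, and it did not pass the filter.

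**Figure D5:**
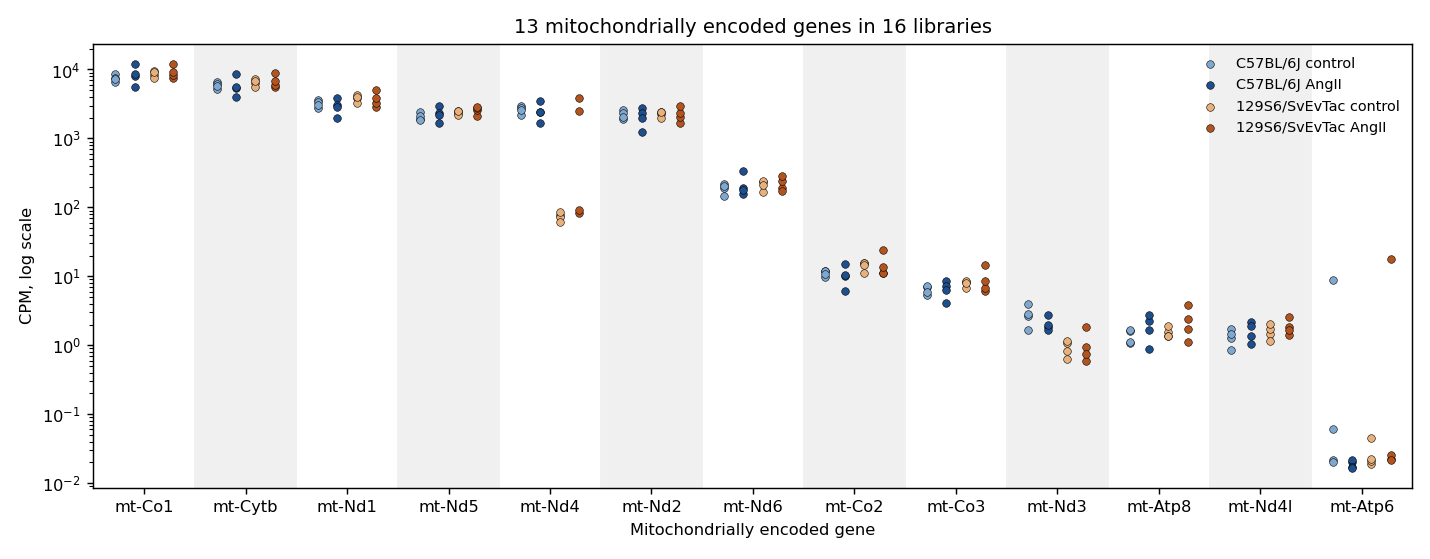
CPM of the 13 mitochondrially encoded genes (log axis) in all 16 libraries, ordered by median and coloured by group. Each point is 1 library. mt-Nd4 splits into 6 libraries of 129S6/SvEvTac at 61.4 to 92.9 CPM and 10 libraries at 1652 CPM or above, and mt-Atp6 is above 1 CPM in 2 libraries only.

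Genes that work beside these complexes were taken from lists outside the rule. Their counts stand beside the shares of all genes given above, 21.8% higher and 17.1% lower in C57BL/6J and 7.71% higher and 4.47% lower in 129S6/SvEvTac. In C57BL/6J, 1 of 2 electron carrier and complex III genes rose, Cycs, which encodes cytochrome c (log2 fold change 0.72 ± 0.22, adjusted p = 0.0173), and 1 of 5 ATP synthase factors fell, the ATPase inhibitor Atpif1 (-0.25 ± 0.08, adjusted p = 0.0204, edgeR in both). Among 15 complex I assembly factors 3 fell and none rose, Ndufaf7 and Ndufaf8 of the members and Tmem126b (-0.39 ± 0.10, adjusted p = 0.00627 by edgeR). Among 29 assembly factors of complexes II to IV, 5 rose and 1 fell. The one that fell was Surf1, which helps build the heme centre of complex IV, from a mean of 38.3 to 21.8 CPM (log2 fold change -0.81 ± 0.10, adjusted p = 2.5e-05 by edgeR), and it also fell in 129S6/SvEvTac (-0.45 ± 0.10, adjusted p = 0.00987 by edgeR). Coa5 rose in C57BL/6J (0.57 ± 0.13), and Uqcc2, a complex III assembly factor, rose in both strains (0.39 ± 0.13 and 0.47 ± 0.13, adjusted p of 0.0323 and 0.0330 by edgeR). Without C57BL/6J AngII replicate 1 the C57BL/6J calls of Cycs and Uqcc2 were lost (0.38 and 0.37, adjusted p of 0.0561 and 0.0742 by edgeR), and 1 of the 29 assembly factors of complexes II to IV rose and 4 fell.

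Of 12 regulators of mitochondrial biogenesis 3 rose in C57BL/6J and none passed in 129S6/SvEvTac, where over all genes 38.9% and 12.2% passed. Ppargc1a, the coactivator PGC-1alpha and itself a gene of the brown fat list, went from a mean of 2.85 to 10.9 CPM (log2 fold change 1.93 ± 0.56, adjusted p = 0.0123), and its response differed between the strains (difference 2.60 ± 0.78, adjusted p = 0.0460, edgeR in both). In C57BL/6J its level with AngII was 24.15, 2.53, 2.91 and 13.9 CPM (replicates 1, 2, 3 and 5), against 1.87 to 3.44 CPM for the controls, so AngII replicates 2 and 3 lay within the control range. Esrrg, an orphan receptor of oxidative tissues, rose by 3.08 ± 0.67 on the log2 scale, and Nfe2l2, the oxidative stress factor NRF2, rose from 91.0 to 114.2 CPM (0.33 ± 0.10) with a difference between the strains of 0.63 ± 0.14 (adjusted p = 0.0137 by edgeR). Of 27 genes of mitochondrial genome expression 1 rose, Fastkd5, and 1 fell, Polg2, the accessory subunit of the mitochondrial DNA polymerase (log2 fold change -1.15 ± 0.20, adjusted p = 0.000386 by edgeR). Of 16 genes of the mitochondrial large ribosomal subunit 1 fell, Mrpl13. Of 13 citric acid cycle genes 2 rose, Dld and Idh3a, and of 15 fatty acid oxidation genes 5 rose, among them Cpt1b, the muscle and brown fat form of carnitine palmitoyltransferase, by 3.49 ± 1.04 on the log2 scale (adjusted p = 0.0146 by edgeR). Cpt1b, also of the brown fat list, was at 106.15, 7.43, 4.21 and 14.6 CPM with AngII and at 0.518 to 8.13 CPM in controls, which overlap. Of 9 antioxidant and uncoupling genes Ucp2 and Ucp3 rose, Ucp2 from a mean of 24.95 to 87.7 CPM. Ucp3 was at 17.6, 0.844, 0.925 and 6.52 CPM with AngII and at 0.1403 to 1.31 CPM in controls, which overlap as well. Without AngII replicate 1, the highest library for all 3, the calls of Ppargc1a, Cpt1b and Ucp3 were lost (1.21, 1.60 and 2.43, adjusted p of 0.0675, 0.137 and 0.0987 by edgeR). In that fit the counts were 2 higher and 1 lower for the regulators, 1 higher and none lower for fatty acid oxidation, 1 higher and 1 lower for the citric acid cycle, and 1 higher and 5 lower for genome expression. With the brown fat markers as a covariate, Ppargc1a, Cpt1b and Ucp3 stood at 0.31, 0.07 and 0.16 and did not pass. These markers hold Ppargc1a and Cpt1b themselves, and their sums did not overlap between the C57BL/6J groups. Esrrg, Nfe2l2 and Ucp2 passed both in this fit and without AngII replicate 1. In 129S6/SvEvTac 1 of the 13 citric acid cycle genes changed, Suclg2, a subunit of succinyl-CoA ligase, which fell by 1.03 ± 0.26 (adjusted p = 0.0189 by edgeR), and no gene of the biogenesis, genome expression, ribosome, antioxidant or fatty acid oxidation lists passed there.

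The promoters of the nuclear members were searched for 4 words that the rule did not use, and no test was made of the shares. Of the 95 nuclear members 78 have a RefSeq window from 250 bases before to 50 after the start, and both strands were searched. None of the 4 contains another. GCATGCGC, a core of the NRF1 site, occurred in 12 of the 78 (15.4%) and in 3.61% of 17492 protein-coding genes. CCGGAAG, a core of the GABP site, occurred in 20 (25.6%) against 11.9%, and AAGATGGC, a core of the YY1 site, in 9 (11.5%) against 3.22%. The NRF1 and GABP words contain CG. Windows of the 75 members outside the tissue forms held a median of 20 CG dinucleotides, against 13 over all genes. The shares were not matched for this. TCAAGGTCA, which estrogen-related receptors bind, occurred in 2, Atp5g3 and Sdhd, which is 2.56% against 0.332%. By class, 6 of 30 complex I windows (20%) held the YY1 word, and 3 held the NRF1 word, Ndufa6, Ndufa8 and Ndufa11. In the Ndufa6 sequence shown above the NRF1 word appears as gcatgCGc. Of the members that fell in both strains, Cox7a2l and Atp5s held none of the 4 words in these windows and Ndufa6 held the NRF1 word.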

How the data were processed

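The deposited table holds 1 estimated count per gene and library, as whole numbers, made by the authors from reads of total RNA: per the labels' protocols, HISAT2 placed the reads on GRCm38 (mm10) and StringTie estimated abundance on GENCODE models. The submitters' processing notes also name DESeq2 1.26.0 and R 3.6.2. How StringTie output became counts, and whether strand was used, are not stated in the sources available. Of 52636 gene IDs, 52489 were matched to a GENCODE M21 symbol. Tests ran on these counts in edgeR 4.0.16 under R 4.3.3 (TMM scaling, filterByExpr with a minimum count of 10, robust quasi-likelihood F test, 1 mean per group over all 16 libraries, prior count 2). Benjamini-Hochberg adjustment covered all 17125 genes tested, the threshold was 0.05, and SE is the absolute log2 fold change over the square root of F. The code was tested on simulated counts. AngII was compared with control within C57BL/6J and within 129S6/SvEvTac, the strains' AngII effects with one another, and C57BL/6J with 129S6/SvEvTac in either condition (5 comparisons). Levels per kilobase use merged GENCODE exons. Promoter windows are from RefSeq (GRCm38.p6); 78 of the 95 nuclear members matched one, and the first was used where there were several. No 2 replicates agreed within sampling noise. Deviations of same-numbered samples were weakly correlated (-0.06 to 0.146), which does not exclude pairing by number. The main design has no replicate block, and a fit with one is among the alternatives. In each class up to 3 called members with the smallest p were named, together with the isoform pairs, the complex II subunits, Uqcrc1, Uqcrfs1, Atp5a1, Atp5b and the mitochondrial genes; further members were named after their values were seen. Members and lists were chosen with earlier results of these data known. Alternatives used other scaling, filters and tools (limma 3.58.1, DESeq2 1.42.0), marker covariates, a replicate block, only the groups compared, and omission of libraries.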

Additional observations from a re-analysis of the deposited data

Results flagged for a closer look

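In 23 of 196 groups of 4 libraries 1 library lay apart from the other 3. Its gap to its nearest neighbour was above Dixon's 95% critical share of the group's range. Chance alone gives about 1 group in 20 for normally distributed values, a rate that need not hold for genes with very few counts. C57BL/6J AngII replicate 1 accounted for 10 of these. There Atp5b stood at 1050.4 CPM, Uqcrc1 at 209.9, Cox4i1 at 215.4, Sdhc at 152.4, Uqcrfs1 at 145.1, Sdhb at 119.8, Atp5g3 at 116.5, Uqcrh at 98.97, Cox7a1 at 28.31 and Cox6a2 at 4.364 CPM, each the highest of its group. These include members of complexes II, III, IV and V. In C57BL/6J controls replicate 1 was highest for Cox7a1 at 2.832 CPM, Cox8b at 6.502 CPM and mt-Atp6 at 8.965 CPM, replicate 5 was set apart for Cox4i1 at 187.5 CPM, and replicate 3 held the only counts of Cox6a2, at 0.06014 CPM.

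In 129S6/SvEvTac controls replicate 3 was set apart for Cox6a1 at 153.1, Sdhc at 128.1 and Sdhd at 57.5 CPM. Replicate 4 was set apart for Ndufaf8 at 9.517 CPM, replicate 2 for Uqcrh at 89.49 CPM and replicate 1 for mt-Atp6 at 0.04522 CPM. This mt-Atp6 value is 2 counts, against 1 in each other control of the strain. In 129S6/SvEvTac AngII replicate 5 was highest for Cox6a2 at 4.341 CPM and mt-Atp6 at 18.07 CPM. The AngII effects of the strains differed for mt-Nd4, by -4.5396 on the log2 scale (C57BL/6J minus 129S6/SvEvTac, adjusted p = 0.0282 by edgeR); in 129S6/SvEvTac 2 of 4 AngII libraries were at the level of C57BL/6J.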

How the results depend on the processing

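Over 47 named members in 183 results, 5428 alternative values were computed: 4821 kept direction and side of the threshold, 364 changed sign with no call in either fit, 164 lost the call, 73 gained one, and 6 changed sign with a call in 1 of the fits. These 6 were all for AngII in C57BL/6J. With the brown fat covariate Atp5a1 was at -0.34, Cox7a1 at -0.072, Cox8b at -0.72, Sdhb at -0.37 and Uqcrc1 at -0.38, and with the white and general fat covariate Cox8b was at -0.83. With the brown fat covariate, members uncalled in both fits that turned from above to below 0 there were Atp5b, Cox6b1, Sdha, Sdhd, Uqcrfs1, mt-Co1, mt-Co3, mt-Nd4l, mt-Nd5 and mt-Nd6, now at -0.44 to -0.11. That covariate did not overlap between C57BL/6J control and AngII libraries, so it cannot be fully separated from AngII there.

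For AngII in C57BL/6J the 21 nuclear members called became 9 with only the groups compared, 45 with the brown fat and 33 with the white and general fat covariate, 35 without C57BL/6J AngII replicate 1 and 129S6/SvEvTac AngII replicate 5, 37 without C57BL/6J AngII replicates 1 and 5, and 12 to 35 with 1 library left out. Of all genes, 34.85%, 27.11%, 26.97%, 33.77% and 29.8% passed in the first 5 of these fits. With 1 library left out the share was 32.67 to 40.81%. The mitochondrial count of 0 became 1 with the brown fat covariate and stayed from 0 to 0 with 1 library left out. For AngII in 129S6/SvEvTac the 5 nuclear members became 17 with library size only, 3 with no filter, 12 with limma voom, 14 with only the groups compared, 27, 15 and 3 with the brown fat, white fat and muscle covariates, 10 and 13 with the same pairs of libraries left out, and 2 to 10 with 1 left out. Of all genes, 17.52%, 5.865%, 19.41% and 17.47% passed in the first 4 of these fits. With the 3 covariates the shares were 12.39%, 14.71% and 11.29%, and with the pairs left out 9.883% and 13.92%. With 1 left out they ran from 7.994 to 14.99%. Library size only also moved the median of all genes there from 0.003 to -0.16. The mitochondrial count of 1 became 0 with limma voom and with a replicate block, and was 1 with any 1 library left out.

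For the difference of AngII effects the nuclear count of 0 became 2 with DESeq2, 2 with limma voom, 2, 2 and 1 with the brown fat, white fat and muscle covariates, 3 without C57BL/6J AngII replicates 1 and 5, and 0 to 1 with 1 library left out. Of all genes, 15.68%, 15.59%, 7.796%, 6.312%, 10.39% and 5.695% passed in the first 6 of these fits. With 1 library left out the share was 5.924 to 17.01%. The mitochondrial count of 1 became 0 with no filter, with limma voom, with a replicate block and with either pair of libraries left out, and 0 to 1 with 1 left out. Between strains in controls the 4 nuclear members became 2 with no filter, 2 with a replicate block, 9 with the brown fat covariate, and 2 to 5 with 1 library left out. Of all genes, 5.329%, 8.076% and 10.32% passed in the first 3 of these fits, and 7.72 to 12.05% with 1 left out. The 2 mitochondrial genes stayed at 2 with 1 library left out and became 1 with a replicate block. Between strains with AngII the 7 nuclear members became 11 with the brown fat covariate, 12 and 22 with the pairs of libraries left out, and 6 to 16 with 1 left out. Of all genes, 32.09%, 23.71% and 23.23% passed in the first 3 of these fits, and 25.43 to 34.64% with 1 left out. The mitochondrial count of 0 there became 1 with RLE factors, library size only, a filter at 1 CPM, DESeq2, the white fat or muscle covariate and either pair left out, 2 with the brown fat covariate, and 0 to 1 with 1 left out. The causes were not tested.

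Of 19 same-numbered pairs of samples 3 had correlated deviations over 0.1 (range -0.06 to 0.146). Low correlations over all genes cannot show that the samples were not paired or processed together by number. With a replicate block the nuclear counts were 19, 3, 0, 2 and 6 in the order of the comparisons above, and the mitochondrial counts 0, 0, 0, 1 and 0. Of all genes, 36.06%, 8.327%, 9.285%, 8.076% and 26.04% passed with the block.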
